A study of Homo sapiens with 24 samples.

Results

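The comparison asked what estrogen added to the transcriptome of B-lymphoblastoid cells that were already exposed to calcitriol, the hormonal form of vitamin D. It set the 6 arrays of cells given calcitriol and estrogen against the 6 arrays of cells given calcitriol alone. The means compared thus came from 12 of the 24 arrays of the study, while the tests took their estimate of spread from all 24. The arrays were chosen by their labels and not by any measured value. Both groups were taken at 36 h, so time in culture was matched. Each agent group held 3 arrays of the line GM10855 and 3 of the line GM10861, and each line was compared with itself before both changes were averaged. GM10855 and GM10861 are HapMap lines of B cells immortalised with Epstein-Barr virus, each derived from 1 donor, so a result here describes these lines and not B cells in general. The other 12 arrays were untreated cells at 0 h (3 per line) and cells given estrogen alone for 36 h (3 per line). Neither dose, estrogen compound nor vehicle is named by the sources at hand, nor is the medium, and estrogenic activity of the medium itself was not tested.

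Estrogens act mainly through the nuclear receptors ESR1 and ESR2, which bind DNA as dimers at estrogen response elements and recruit p160 coactivators such as NCOA1 and NCOA2, and through the membrane receptor GPER1. In responsive cells such as those of the breast, estrogen raises genes including PGR, GREB1 and TFF1. Calcitriol binds the vitamin D receptor VDR, which acts with the retinoid X receptor RXRA and induces CYP24A1, the enzyme that degrades calcitriol, and CAMP, the precursor of the antimicrobial peptide cathelicidin. VDR and the estrogen receptors draw on some of the same coactivators.

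Correlations across probe sets were 0.985 to 0.993 within a group and 0.978 to 0.984 between GM10855 and GM10861. No array was a copy of another (0 identical). Ranked by signal among all probe sets, 16 B cell markers had a median percentile of 81.7, from 4.27 for BANK1 to 99.2 for MS4A1, the gene of CD20. A higher median of 93.9 was found for 15 plasma cell markers, from 63.1 for SDC1 to 99.9 for JCHAIN. Fibroblast and epithelial markers (14) had a median of 33.8. The median was 31.5 for 13 T cell markers (CD3D of the T cell receptor complex at 24, LCK at 88.8), 22.4 for 10 natural killer cell markers (up to 60.7 for NKG7), 30.5 for 12 monocyte markers (LYZ at 4.26, CST3 at 80.2) and 29.5 for 5 erythroid markers (up to 59 for KLF1). With RMA values and no detection p-values, a low signal cannot be told apart from background.

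Estrogen on top of calcitriol changed no gene past the threshold when both lines were averaged. At an adjusted p under 0.05 by limma, 0 of 21214 probe sets with a gene symbol were called (0%), and the smallest adjusted p was 0.115. At an unadjusted p under 0.05 there were 1772 probe sets (8.35%), of which 1001 were higher with estrogen and 771 lower. The changes were small throughout: from the 1st to the 99th percentile they ran from -0.24 to 0.23 in log2 units, and 16 probe sets (0.0754%) reached an absolute change of 0.5, which is 1.41-fold. The precision was enough to bound the measured change for most genes, although RMA compresses changes of dim probe sets. The median standard error was 0.0742, and the whole 95% interval lay within 0.5 on either side of 0 for 20897 probe sets (98.5%) and within 1 for 21203 (99.9%).

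Estrogen receptors and estrogen response genes gave intervals around 0. The level of ESR1, the main nuclear receptor, was low in every group. In GM10855 its first probe set read 4.37, 4.35 and 4.19 with calcitriol and 4.42, 4.72 and 4.46 with both agents. The GM10861 arrays read 4.29, 4.39 and 4.50 against 4.38, 4.39 and 4.37. The GM10855 groups did not overlap and the GM10861 groups did, and the averaged change of 0.11 ± 0.0659 (SE; 95% interval -0.0273 to 0.245) did not pass the test (adjusted p = 0.681, limma). The second ESR1 probe set gave a change of 0.001. ESR2 changed by -0.03 (95% interval -0.18 to 0.116) and GPER1 by 0.01 (-0.141 to 0.164). Their signals lay at the percentiles 30 and 36.7 of probe sets.

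Among the classical response genes, PGR, the progesterone receptor, gave 0.003, and GREB1, a cofactor of ESR1, gave -0.01 (95% interval -0.155 to 0.137). Both signals were low (percentiles 12.6 and 18.3), where RMA compresses changes, so these values do not bound a response. TFF1, a secreted trefoil peptide of epithelia, read 5.58, 5.67 and 5.53 with calcitriol and 5.54, 5.52 and 5.50 with both agents in GM10855. In GM10861 the values were 5.31, 5.51 and 5.47 against 5.29, 5.22 and 5.36. All 6 arrays with estrogen lay below the calcitriol mean of their line, the groups overlapped in both lines, and the change of -0.11 ± 0.0636 was not called (adjusted p = 0.679, limma). XBP1, the transcription factor of secretory and plasma cells, had one of the highest signals on the arrays (percentile 98.9) and changed by -0.06 (95% interval -0.159 to 0.0464). CCND1, encoding cyclin D1, changed by 0.05, MYC, encoding a growth-promoting transcription factor, by -0.07 and BCL2, an inhibitor of apoptosis, by 0.09. CYP19A1, the aromatase that makes estrogen, had a low signal too (percentile 10.1) and changed by -0.03 (95% interval -0.205 to 0.138).

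Over 43 receptor, coregulator and response genes together, the change ranged from -0.11 to 0.19 with a median of -0.02, and 18 lay above 0. None was called (0 of 43), and their 95% intervals reached from -0.292 to 0.333 at the widest. A mean log2 signal of 5 or more was reached by 9 of 14 receptors and coregulators and 15 of 31 response genes (the lists overlap). Of the 43 genes, 2 had an unadjusted p under 0.05, both of them p160 coactivators and both above 0. Beside them stand 4.66% of 18417 genes that were higher and 3.3% that were lower at that p. NCOA2 read 7.33, 7.39 and 7.43 with calcitriol and 7.64, 7.57 and 7.54 with both agents in GM10855. GM10861 gave 7.29, 7.24 and 7.42 against 7.59, 7.54 and 7.35. The GM10855 groups did not overlap, the GM10861 groups did, and the change was 0.19 ± 0.0599 (adjusted p = 0.446, limma). NCOA1 changed by 0.16 ± 0.0713 (adjusted p = 0.567, limma). Both genes are long, at 347 kb for NCOA2 and 279 kb for NCOA1. Gene length moved with the change in GM10855 and in the average of both lines, as described later.

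**Figure D1:**
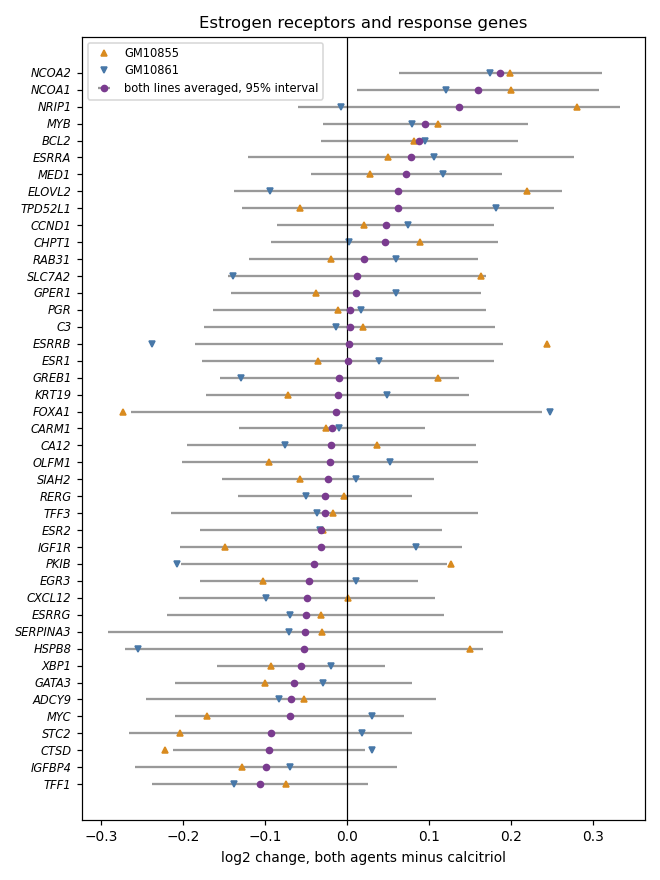
Change in log2 signal when estrogen was added to calcitriol for 43 estrogen receptor, coregulator and response genes, with 95% limma intervals for the average of both lines and separate marks for each line. All averages lie between -0.11 and 0.19, and the intervals reach from -0.292 to 0.333.

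Other estrogen-related lists gave the same picture of few and small differences. Of 13 measured genes of estrogen synthesis and inactivation, 0 had an unadjusted p under 0.05, and their median change was 0.05. Of 11 measured B cell genes that have been linked to estrogen, 1 did: VCAM1, an adhesion molecule, at 0.24 ± 0.103 (adjusted p = 0.554, limma). At that p, 4.66% of all genes were higher and 3.3% lower. That list had a median change of -0.04, with -0.14 in GM10855 and 0.02 in GM10861. Over all 21214 probe sets the median change was 0.002.

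Genes that calcitriol raised stood at similar levels with and without estrogen. The 6 described here were called higher by limma both for calcitriol against untreated cells, where 0.618% of probe sets were, and for calcitriol added to estrogen, where 0.679% were. CAMP read 8.63, 8.47 and 8.72 with calcitriol and 8.39, 8.60 and 8.17 with both agents in GM10855. In the other line, GM10861, the arrays read 8.14, 7.86 and 8.11 against 7.87, 8.01 and 7.88. The groups overlapped in both lines although all 6 arrays with estrogen lay below the calcitriol mean of their line, and the change of -0.17 ± 0.102 (95% interval -0.381 to 0.0427) was not called (adjusted p = 0.683, limma). Set side by side, calcitriol against untreated cells gave 2.46 for CAMP and calcitriol added to estrogen gave 2.16. The interaction of the agents, the difference between those values, was -0.30 ± 0.145 (adjusted p = 0.992, limma). The untreated cells were sampled at 0 h, so the interaction also holds 36 h of culture with a minus sign. Across the genome 0 of 21214 probe sets (0%) were called for this interaction by limma, and 935 (4.41%) had an unadjusted p under 0.05.

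CYP24A1 read 4.90, 5.0 and 5.02 with calcitriol and 5.35, 5.02 and 4.93 with both agents in GM10855. The values in GM10861 were 6.11, 6.21 and 6.08 against 5.68, 6.30 and 6.26. The groups overlapped in both lines, and the change was 0.04 ± 0.115 (95% interval -0.2 to 0.277). Its rise was 2.06 with calcitriol against untreated cells and 2.08 with calcitriol added to estrogen. STS, steroid sulfatase, which frees estrogens and other steroids from their sulfates, gave 0.03 (95% interval -0.0926 to 0.159), beside 1.89 and 1.73 for calcitriol without and with estrogen. CD38, an ectoenzyme that consumes NAD, gave 0.01 (-0.123 to 0.134), beside 1.0 and 0.99. CD79A gave -0.05 (-0.175 to 0.0841), beside 0.85 and 0.78. TNFRSF17, the receptor BCMA of plasma cells, gave -0.003 (-0.108 to 0.102), beside 0.67 and 0.68. Over these 6 genes, which were picked because calcitriol was already known to raise them on these arrays, the addition of estrogen shifted the level by -0.17 to 0.04, with interval bounds from -0.381 to 0.277.

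The receptor side of the pathway was also close to 0. VDR changed by -0.08 (95% interval -0.205 to 0.0526), RXRA by 0.03 (-0.11 to 0.169) and CYP27B1, the enzyme that makes calcitriol, by 0.002 (-0.178 to 0.182). Of 39 measured targets of the vitamin D receptor, 0 were called, and 2 had an unadjusted p under 0.05. These were ATP2B1, a plasma membrane calcium pump, at 0.13 and ORM1, an acute phase glycoprotein, at -0.32. At that p, 4.66% of all genes were higher and 3.3% lower. The median of the 39 was -0.02.

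**Figure D2:**
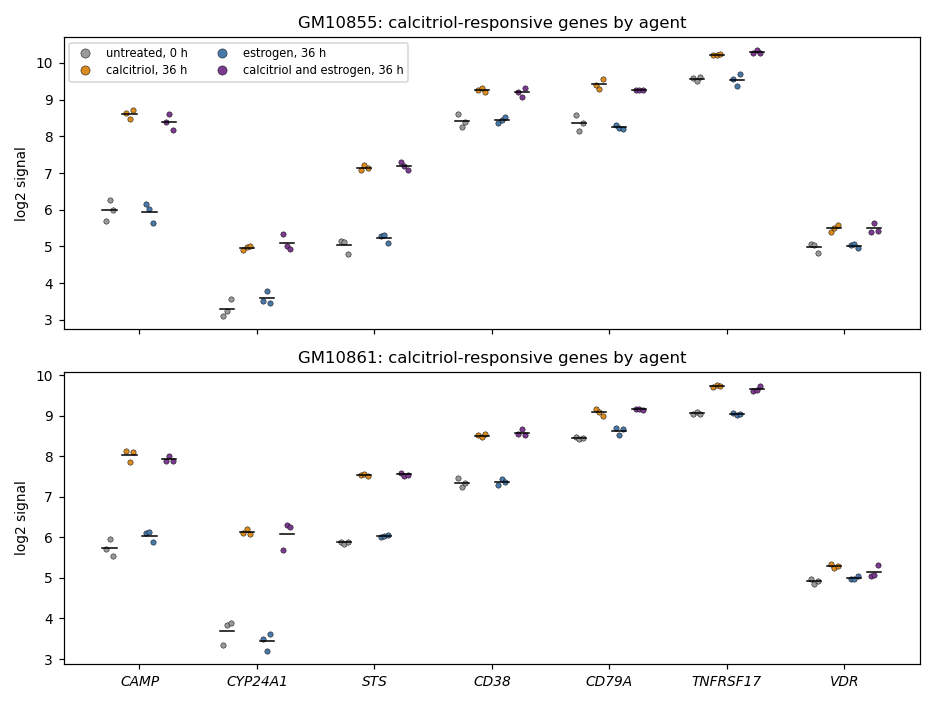
Log2 signal of 7 vitamin D genes on each of the 24 arrays by agent, with GM10855 and GM10861 in separate panels. For CAMP, CYP24A1, STS and CD38, the arrays with calcitriol and those with both agents lie at similar heights, with averaged changes from -0.17 to 0.04.

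The smallest p in the average of both lines belonged to TAF1L and NF1, both at an adjusted p of 0.115. NF1 encodes neurofibromin, an inhibitor of RAS signalling. NF1 read 7.24, 7.37 and 7.30 with calcitriol and 7.87, 7.60 and 7.82 with both agents in GM10855. For GM10861 they were 7.42, 7.42 and 7.51 against 7.67, 7.64 and 7.57. The groups did not overlap in either line and all 6 arrays with estrogen were higher, by 0.32 ± 0.0563 on average (95% interval 0.199 to 0.432), but the adjusted p was 0.115 (limma). It passed the threshold at 0.0451 among probe sets with a mean signal of at least 5 and at 0.0328 when the second GM10855 array of both agents was left out. NF1 has near-identical pseudogene copies that can share probes, so its value is uncertain to that extent. TAF1L, a retrogene copy of the TFIID subunit gene TAF1, read 4.81, 4.82 and 4.86 against 5.38, 5.38 and 5.21 in GM10855. The GM10861 arrays read 4.96, 5.0 and 4.96 against 5.06, 5.09 and 4.99. The GM10861 groups overlapped, and the averaged change was 0.29 ± 0.0502 (adjusted p = 0.115, or 0.0451 among probe sets with a mean signal of at least 5, limma). Probes for TAF1L can read its parent gene.

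A second set of genes, named for their small p, was separated in both lines without passing the test. How many of all probe sets were separated in this way was not counted, so the separation is a description only. IL2RA, the alpha chain of the interleukin 2 receptor, read 5.68, 5.66 and 5.71 with calcitriol and 6.16, 6.06 and 5.81 with both agents in GM10855. In GM10861 the values were 5.62, 5.72 and 5.80 against 5.96, 5.96 and 5.92. The groups did not overlap in either line, and the change was 0.28 ± 0.0604 (adjusted p = 0.408, limma). HAPLN3, a link protein of hyaluronan matrix, went the other way, at 5.65, 5.72 and 5.60 against 5.34, 5.21 and 5.37 in GM10855. GM10861 gave 5.25, 5.08 and 5.16 against 4.90, 5.0 and 4.87. Its change was -0.29 ± 0.0676 (adjusted p = 0.408, limma), again with no overlap in either line. The lysosomal sulfatase gene IDS (0.24), the guidance receptor gene ROBO1 (0.23) and ATG2B (0.27), a lipid transfer protein of autophagy, were separated in both lines too, as was JPH3 (-0.22), a junctophilin. None of these was called.

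Further genes with small p carried values of the same size. Higher were VPS13A (0.26), a lipid transfer protein, CCSER1 (0.31) and PRICKLE2 (0.38), a planar cell polarity gene. Lower were MRM3 (-0.25), a methyltransferase of mitochondrial ribosomal RNA, NDUFS8 (-0.24), a subunit of respiratory complex I, TK1 (-0.29), thymidine kinase, RBM38 (-0.23), an RNA-binding protein, and the histone gene H2AC13 (-0.35). The absolute change was highest for CD177, a surface protein of neutrophils, whose signal lay at the percentile 6.15 of probe sets. CD177 read 3.27, 3.87 and 3.02 against 3.16, 2.23 and 2.71 in GM10855 and 3.85, 3.29 and 4.21 against 2.82, 2.81 and 2.67 in GM10861. Its change of -0.85 ± 0.191 had an adjusted p of 0.408 (limma).

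Taken by itself, GM10855 had 11 called probe sets of 21214 (0.0519%). By limma at an adjusted p under 0.05, 7 were higher with estrogen (0.033%) and 4 were lower (0.0189%), and 2725 (12.8%) had an unadjusted p under 0.05. GM10861 by itself had 0 called (0%), a smallest adjusted p of 0.911 and 634 probe sets (2.99%) with an unadjusted p under 0.05. The lines were not shown to differ: the test of the difference in change between them called 0 probe sets (0%), with a smallest adjusted p of 0.472 and 1471 probe sets (6.93%) at an unadjusted p under 0.05. Whether these 11 passed the threshold depended on single arrays. Without the first GM10855 array of both agents, 0 were left and the smallest of their adjusted p was 0.131, while their changes kept their signs and much of their size, such as 0.83 for TAS2R14, 0.93 for TAS2R31, 0.47 for TAF1L, 0.40 for NF1, -0.44 for GFUS and -0.78 for H2BC3. Leaving out the second such array gave 145 calls, and leaving out the other one gave 2. Leaving out 1 GM10855 array of calcitriol gave 0, 1 or 0, and leaving out any 1 of the 6 GM10861 arrays gave 2. With the spread estimated from only the 12 arrays compared, 0 were called in GM10855 (smallest adjusted p 0.0772, limma).

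The genes that rose in GM10855 were led by bitter taste receptors, G protein-coupled receptors best known from taste cells. TAS2R31 read 5.19, 5.38 and 5.10 with calcitriol and 6.67, 5.86 and 6.45 with both agents, a rise of 1.10 ± 0.196 (adjusted p = 0.0488, limma). In the other line, GM10861, the arrays read 5.54, 5.73 and 5.84 against 5.73, 5.67 and 5.82. The GM10855 groups did not overlap and the GM10861 groups did, and the difference between lines had an adjusted p of 0.531 (limma). TAS2R14 read 4.62, 5.27 and 4.90 against 5.98, 5.72 and 5.79 in GM10855, a rise of 0.90 ± 0.144 (adjusted p = 0.026, limma), beside 0.06 in GM10861. TAS2R50 read 3.92, 3.91 and 3.69 against 5.17, 4.35 and 4.80 in GM10855, a rise of 0.93 ± 0.167 (adjusted p = 0.0488, limma), beside 0.004 in GM10861. For all 3 receptors the lowest GM10855 array with both agents lay above the highest with calcitriol. They were named because they were called on these arrays, and how many of all probe sets were so separated was not counted. The separation is a description only. In the other GM10855 groups TAS2R31 read 5.38, 5.45 and 5.99 in untreated cells and 5.91, 5.91 and 6.15 with estrogen alone.

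These receptor genes neighbour each other on chromosome 12, where 8 of the 14 measured lie within the bounds of PRH1, a salivary proline-rich protein gene, in the GRCh38.p14 gene table. PRH1 and the receptors checked there (TAS2R13, TAS2R14, TAS2R50 and TAS2R20) lie on the same strand, so a signal at such a receptor can come from a transcript of PRH1, and the receptor values are uncertain to that extent. The 8 receptors within PRH1 gave 0.56 to 1.10 in GM10855, where 3 were called and 8 had an unadjusted p under 0.05 (5.68% of all genes were higher at that p), and -0.17 to 0.13 in GM10861. The 6 outside it gave -0.07 to 0.79 in GM10855, or -0.07 to 0.19 for 5 of them without the highest, and 1 had an unadjusted p under 0.05. This grouping was made after the calls were seen and is a description only. The probe set of PRH1 carries several symbols and was not named.

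**Figure D3:**
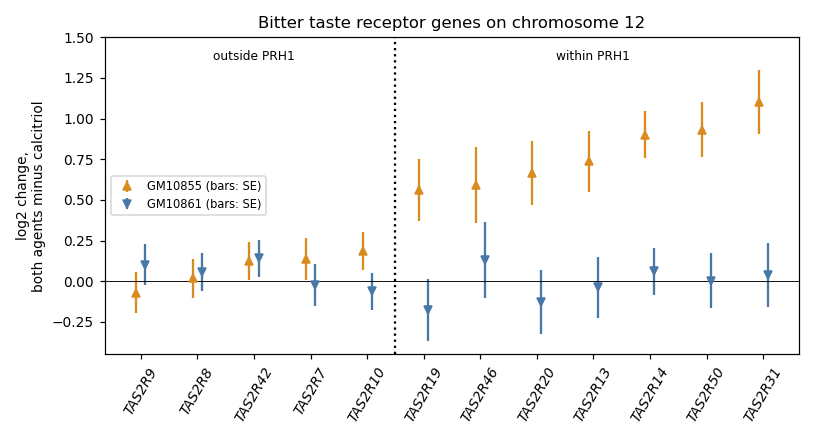
Change in log2 signal with estrogen added to calcitriol (bars are standard errors) for 12 of the 14 bitter taste receptor genes of chromosome 12, split by whether the gene lies within PRH1. The other two, known for whole-gene deletions among people, are not drawn, 1 of them being the highest outside PRH1 (0.79 in GM10855). In GM10855 the genes within PRH1 lie at 0.56 or above, while in GM10861 they lie between -0.17 and 0.13.

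The other calls in GM10855 were genes of varied function. TAF1L rose by 0.50 ± 0.071 (adjusted p = 0.00937, limma), NF1 by 0.45 ± 0.0796 (adjusted p = 0.0488) and VPS13A by 0.42 ± 0.0771 (adjusted p = 0.0499). ERMN, a cytoskeletal protein of myelin-forming cells with a low signal here (percentile 11.1), read 3.40, 3.61 and 3.47 against 4.05, 3.94 and 4.23 and rose by 0.58 ± 0.11. H2BC3, which encodes a histone H2B made during DNA replication, read 6.43, 6.14 and 6.33 with calcitriol and 5.10, 5.71 and 5.33 with both agents. It fell by 0.92 on the log2 scale (SE 0.17, adjusted p = 0.0499, limma), beside 6.88, 6.43 and 6.31 against 6.45, 6.75 and 6.32 in GM10861, where the groups overlapped. Histone genes are close in sequence and can share probes. TWF2, an actin-binding twinfilin, read 7.76, 7.65 and 7.70 against 7.32, 7.41 and 7.30 in GM10855 and fell by 0.36. GFUS, the enzyme that completes GDP-fucose synthesis, read 7.69, 7.63 and 7.72 against 7.25, 7.23 and 7.25 and fell by 0.44. URM1, a ubiquitin-like sulfur carrier for tRNA modification, read 6.96, 7.03 and 6.99 against 6.63, 6.55 and 6.71 and fell by 0.36. In GM10861 the same 4 falling genes gave changes of -0.04 for H2BC3, 0.04 for TWF2, 0.10 for GFUS and -0.03 for URM1.

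The promoters of called genes were read for the core letters of the estrogen response element, because these genes were called in GM10855. The sequences are the 250 bases before the annotated start of each gene in RefSeq (GRCh38.p14), printed 5′ to 3′ on the strand of the gene. Capitals mark GGTCA or its reverse complement TGACC, which together form the full element GGTCANNNTGACC. CAMP, at chr3:48223245-48223494 (plus strand), is shown as a vitamin D target for reference. NF1 lies at chr17:31094727-31094976 (plus), TAS2R14 at chr12:10939264-10939513 (minus), TAS2R50 at chr12:10986913-10987162 (minus) and H2BC3 at chr6:26043714-26043963 (minus).
CAMP: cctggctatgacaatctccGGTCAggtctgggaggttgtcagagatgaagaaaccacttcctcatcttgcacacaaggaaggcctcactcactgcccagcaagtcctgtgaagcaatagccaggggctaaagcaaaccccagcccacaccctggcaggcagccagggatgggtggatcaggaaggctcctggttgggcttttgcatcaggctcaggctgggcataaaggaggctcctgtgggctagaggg
NF1: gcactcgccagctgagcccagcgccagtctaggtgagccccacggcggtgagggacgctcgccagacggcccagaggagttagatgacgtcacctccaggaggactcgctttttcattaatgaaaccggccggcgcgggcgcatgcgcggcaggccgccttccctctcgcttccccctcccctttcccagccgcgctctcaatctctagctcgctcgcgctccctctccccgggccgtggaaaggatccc
TAS2R14: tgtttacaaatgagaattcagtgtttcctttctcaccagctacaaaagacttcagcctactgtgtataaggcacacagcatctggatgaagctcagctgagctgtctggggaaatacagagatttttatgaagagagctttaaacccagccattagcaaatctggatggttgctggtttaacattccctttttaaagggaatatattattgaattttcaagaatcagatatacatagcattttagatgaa
TAS2R50: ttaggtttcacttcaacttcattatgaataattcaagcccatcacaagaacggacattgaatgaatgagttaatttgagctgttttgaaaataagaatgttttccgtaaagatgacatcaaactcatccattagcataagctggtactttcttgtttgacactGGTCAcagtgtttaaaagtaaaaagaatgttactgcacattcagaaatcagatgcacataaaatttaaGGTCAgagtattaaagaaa
H2BC3: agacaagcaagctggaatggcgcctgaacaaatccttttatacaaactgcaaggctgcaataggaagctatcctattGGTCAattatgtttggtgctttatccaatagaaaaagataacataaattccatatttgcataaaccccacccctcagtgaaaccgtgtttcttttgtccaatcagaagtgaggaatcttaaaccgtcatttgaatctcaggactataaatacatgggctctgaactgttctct

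NF1 and TAS2R14 held 0 copies of the core in this window, CAMP and H2BC3 held 1 each and TAS2R50 held 2. Among genes called in GM10855, 3 of the 7 with a promoter in the table held at least 1 copy, as did 10 of 24 estrogen response genes (41.7%), 9 of 31 vitamin D receptor targets (29%) and 33.1% of 27305 promoters in all. The full element was found in 0 promoters of these 3 sets and in 12 of all promoters (0.0439%). The core is short and matches are a description of letters, not binding sites. Where no match was found, only these letters in this window are concerned.

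Nothing was called in GM10861, and the genes with the smallest p there were not those of GM10855. SLC35F5, a member of a family of sugar transporters, read 5.34, 5.64 and 5.51 with calcitriol and 5.80, 6.12 and 6.10 with both agents in GM10861, a change of 0.51 ± 0.109 (adjusted p = 0.911, limma), beside 0.07 in GM10855. CBLL2, with a low signal (percentile 10.1), changed by 0.57 and RNF24, a ring finger protein, by 0.37. On the low side, DDI1 changed by -0.43, ZNF667, a zinc finger protein, by -0.41 and BTBD8 by -0.36. None of these passed the test.

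Between the lines the changes were close to unrelated. Across 21214 probe sets the Pearson correlation of the change in GM10855 with that in GM10861, which share no arrays, was 0.06. Genes are not independent replicates, so no p is given. Signs were shared between lines by 51.8% of all probe sets and for 1485 of the 2725 (54.5%) with an unadjusted p under 0.05 in GM10855. With the same sign and an unadjusted p under 0.05 in both lines there were 33, which is 1.21% of the GM10855 set and 5.21% of the 634 of GM10861. Over all probe sets, 12.8% had such a p in GM10855 and 2.99% in GM10861, in either direction. The 33 are therefore not read as a shared response. The smallest p for a difference between lines belonged to genes including BTBD8 (0.27 in GM10855, -0.36 in GM10861), MAGED2 (-0.31 and 0.30), ALPP, a placental alkaline phosphatase (-0.45 and 0.62), and CCDC146 (0.52 and -0.15), each at an adjusted p of 0.472 (limma).

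**Figure D4:**
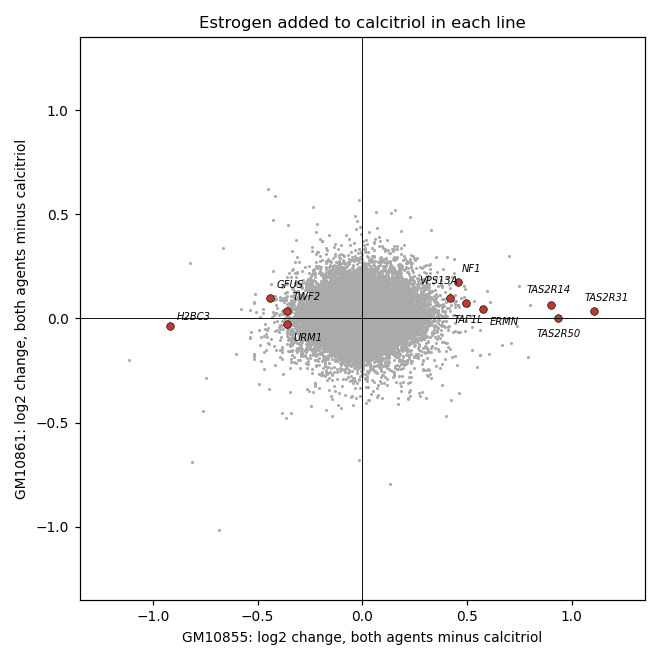
Change in log2 signal with estrogen added to calcitriol in GM10855 (x axis) against GM10861 (y axis), 1 point per probe set, with those called in GM10855 in red. The cloud has no slope to the eye (Pearson correlation 0.06). The red points were chosen by their p in GM10855, so their distance from 0 on the x axis follows from that choice.

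The change moved with the length of the gene, in GM10855 and in the average of both lines. Over 12497 probe sets of protein-coding genes whose mean log2 signal was 5 or more, Spearman's rho between the change and the gene's span in RefSeq was 0.37 in GM10855 and 0.12 in GM10861. For the average of both lines rho was 0.37. The averaged change had a median of -0.04 for genes under 10 kb and 0.05 for genes of 100 kb or more. In GM10855 the median change was -0.08 for 3117 probe sets of genes under 10 kb, -0.05 for 3695 of genes of 10 to 30 kb, 0.01 for 3735 of genes of 30 to 100 kb and 0.07 for 1950 of genes of 100 kb or more. The share above 0 went from 26.9% in the shortest class to 69.8% in the longest. In GM10861 the medians ran from 0.003 to 0.03 and the shares from 51.4% to 65.7%. At an unadjusted p under 0.05 in GM10855, 33 probe sets of the shortest class were higher and 471 lower, against 385 higher and 38 lower in the longest. Over all 18417 genes, 5.68% were higher and 6.72% lower at that p.

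Arrays differed in this property. Against the calcitriol mean of the line, the 3 GM10855 arrays with both agents had a rho with gene length of 0.43, 0.18 and 0.26, and the 3 GM10861 arrays had 0.09, 0.15 and 0.001. The first GM10855 array was the highest, and leaving it out was among the settings that left 0 calls in that line. With the relation to length removed within each array, 4 of the 11 calls in GM10855 remained: TAF1L, TAS2R14, NF1 and ERMN. The other 7 kept changes of a like size, such as 1.13 for TAS2R31, 0.96 for TAS2R50, -0.91 for H2BC3, 0.38 for VPS13A and -0.32 for TWF2, with adjusted p from 0.0507 to 0.128 (limma). The called genes themselves were mostly short, with a median span of 6.22 kb for those that rose and 7.99 kb for those that fell, against 26.1 kb over the 12497 probe sets. NF1 (283 kb) and VPS13A (244 kb) are long. RNA quality and labelling were not measured in the sources used here, and their part in the relation was not tested.

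**Figure D5:**
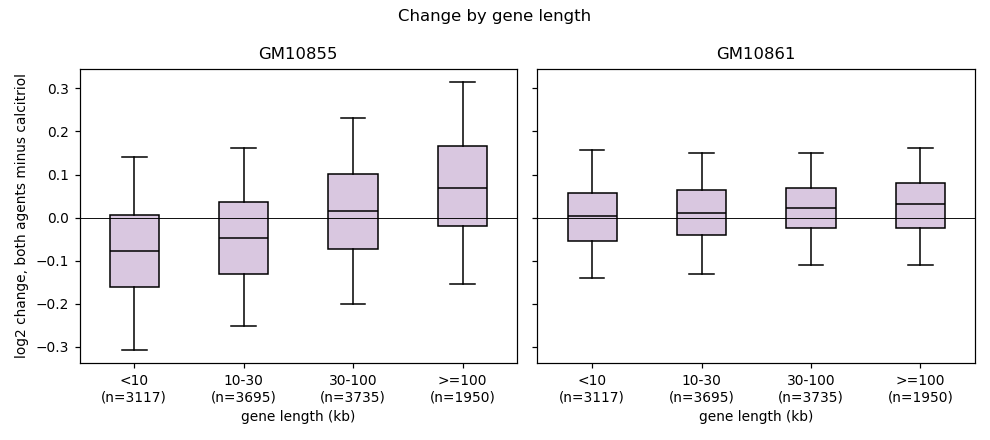
Change in log2 signal with estrogen added to calcitriol by gene length class for 12497 probe sets, in each line (boxes are quartiles with the median, whiskers the 5th to 95th percentiles). The GM10855 medians go from -0.08 in the shortest class to 0.07 in the longest, and the GM10861 medians from 0.003 to 0.03.

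Besides the bitter taste receptors, which are short genes (median span 1.05 kb) and lay above 0 in GM10855 for 13 of 14, a pair of other families of short genes were read after the calls were seen. Of 58 replication-dependent histone genes, which lack introns, 49 lay below 0 in GM10855 (median -0.32, with 36 lower at an unadjusted p under 0.05, beside 6.72% of all genes, and 1 called) and 46 lay below 0 in GM10861 (median -0.07). Of 64 cytosolic ribosomal protein genes, 54 lay below 0 in GM10855 (median -0.11) and 45 in GM10861 (median -0.05). At an unadjusted p under 0.05 in GM10855, 0 were higher and 9 lower, beside 5.68% and 6.72% of all genes. The histone and ribosomal protein directions were kept after centring each array on its median and after cyclic loess. Over all genes, 46.9% lay above 0 in GM10855 and 57.6% in GM10861. Among probe sets of genes under 10 kb with a mean log2 signal of 5 or more, the shares were 26.9% and 51.4%.

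In the growth, stress and immune lists, 0 members of any were called in the average of both lines or in either line. Beside each count stand 4.66% of 18417 genes higher and 3.3% lower at an unadjusted p under 0.05. For proliferation, 0 of 29 genes of G1/S and DNA replication were higher and 2 lower, among them MCM2 (-0.13), a subunit of the replicative helicase, and the list median was -0.08 in GM10855 and 0.02 in GM10861. Of 29 genes of G2/M and mitosis, 1 was higher, the spindle protein gene ASPM (0.18), and 2 were lower, CCNB2 (-0.15), encoding a mitotic cyclin, and CDC25C (-0.20), encoding its activating phosphatase. Of 22 MYC targets and ribosome biogenesis genes, 1 was higher and 1 lower, the latter being FBL (-0.13), encoding the rRNA methyltransferase fibrillarin.

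Of 36 interferon-stimulated genes, 1 was higher (PARP14, 0.15) and 5 were lower, and the list median was -0.02 beside 0.003 over all genes. IFI6, an interferon-induced mitochondrial protein, read 9.85, 9.92 and 9.99 with calcitriol and 9.50, 9.64 and 9.54 with both agents in GM10855. The values in GM10861 were 9.29, 9.09 and 8.95 against 8.97, 9.11 and 9.0. The groups were apart in GM10855 and overlapped in GM10861, and the averaged change was -0.22 ± 0.0715 (adjusted p = 0.452, limma). ISG15, a ubiquitin-like modifier, changed by -0.15 and ISG20, an exonuclease, by -0.15. The other lower genes of this list were IFI35 (-0.16) and IRF9 (-0.14). Of 27 NF-kB targets 1 was lower, the chemokine gene CCL17 (-0.14), with a list median of -0.08 in GM10855 and 0.07 in GM10861. Of 26 immediate early genes 1 was lower, IER2 (-0.15), with a list median of -0.13 in GM10855 and 0.007 in GM10861.

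Of 30 genes of the unfolded protein and amino acid stress responses, 1 was higher, the chaperone gene DNAJC3 (0.16), and 3 were lower. DDIT4, an inhibitor of mTORC1 signalling, read 8.54, 8.64 and 8.59 with calcitriol and 8.32, 8.60 and 8.25 with both agents in GM10855. For GM10861 they were 8.26, 8.18 and 8.34 against 7.98, 8.06 and 7.94. The GM10861 groups did not overlap, the GM10855 groups did, and the change was -0.23 ± 0.0772 (adjusted p = 0.459, limma). Of 20 sterol and fatty acid synthesis genes, 1 was higher, SC5D (0.14), and 1 was lower, SREBF1 (-0.13), the transcription factor of the pathway. Heat shock genes had 1 of 17 higher (CHORDC1, 0.17), hypoxia and glycolysis genes had 1 of 28 lower (DDIT4 again), and 0 of 21 p53 targets had an unadjusted p under 0.05.

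Genes of B cell identity and maturation moved little in the average of both lines. Of 16 B cell markers 1 was lower, CD79B (-0.16), a part of the B cell receptor, and of 16 MHC class II presentation genes 1 was lower, RFXANK (-0.15), a factor for their promoters. Of 15 plasma cell markers 1 was lower: MZB1, a chaperone of immunoglobulin assembly, which read 9.20, 9.28 and 9.32 against 8.86, 9.08 and 8.93 in GM10855 and 8.55, 8.59 and 8.51 against 8.56, 8.56 and 8.36 in GM10861. Its change was -0.18 ± 0.0553 (adjusted p = 0.439, limma). By line, the median of the B cell markers was -0.10 in GM10855 and 0.02 in GM10861. For the MHC class II presentation genes these medians were -0.07 and 0.03, and for the plasma cell markers -0.06 and -0.02. Among markers of other cell types 1 of 13 for T cells was lower (CD5, -0.13), 1 of 10 for natural killer cells was higher (GZMB, 0.17), and 0 of 12 for monocytes, 0 of 5 for erythroid cells and 0 of 14 for fibroblasts and epithelia had an unadjusted p under 0.05. In a bulk sample, a change in the number of cells of a type and a change in RNA per cell cannot be told apart.

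Estrogen given without calcitriol offered a second view, from group means that this comparison did not use. Both comparisons took their estimate of spread from all arrays of the study, so their p-values were not independent. A probe set of small spread can have an unadjusted p under 0.05 in both for that reason. The overlap at that p is a description only. Estrogen at 36 h against untreated cells at 0 h called 0 of 21214 probe sets (0%) by limma, with 1097 (5.17%) at an unadjusted p under 0.05, and it holds 36 h of culture as well as the agent. Of those 1097, 688 (62.7%) had the same sign when estrogen was added to calcitriol, against 55.5% of all probe sets, and 121 (11.0%) had the same sign and an unadjusted p under 0.05, against 1195 (5.63%) of all 21214. The Pearson correlation across probe sets was 0.17. The relation of the change to gene length had a rho of 0.11 with estrogen alone and 0.37 on top of calcitriol. KCNQ5, a potassium channel gene, gave 0.24 with estrogen alone and 0.14 on top of calcitriol. ARG1, arginase, gave 0.26 and 0.12. Other genes with the smallest p for estrogen alone were near 0 on top of calcitriol: BRIX1, a ribosome biogenesis factor, gave -0.29 and -0.03, CD247, the zeta chain of the T cell receptor, 0.28 and 0.01, and FHIT 0.33 and -0.003. The leading genes of the comparison on calcitriol were small with estrogen alone, at 0.06 for NF1, -0.05 for TAF1L, 0.07 for IL2RA and 0.06 for HAPLN3.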

How the data were processed

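RNA of 24 samples in 8 groups of 3 was measured on Affymetrix whole-transcript arrays. Per the submitters' processing notes, the authors made the deposited log2 signals with RMA in Affymetrix Expression Console 1.0.1. RMA equalises the distributions of the arrays, which hides shifts common to most genes, and it compresses changes of dim probe sets. Which arrays were normalised together, and the genome build, is not given in the sources used here. Of 33297 probe sets, 19460 had 1 gene symbol, 1754 several and 12083 none. Symbols were updated by Entrez ID to the RefSeq GRCh38.p14 gene table (19429 matched), which also gave gene spans.

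The 21214 probe sets with a symbol were tested with limma 3.58.1 in R 4.3.3. The fit took all 24 arrays with a mean for each group (16 residual and 6.73 prior degrees of freedom). Two-sided p-values were adjusted within each comparison (Benjamini-Hochberg), and a call is an adjusted p under 0.05. Errors are standard errors, and intervals are 95%. Gene lists used 1 probe set per gene, the brightest (18417 genes), and got no test. The number of arrays limits the precision. Whether the 3 arrays of a group are separate cultures is not stated, so p-values measure only their spread, which may be technical. Array numbers follow the sample list.

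Named were the 10 genes with the smallest p in each direction with the same sign in both lines, up to 5 calls in each direction per line (filled to 3 by p), 3 members by p of each list described, the leading genes of estrogen alone and a fixed set of receptor and target genes. Families grouped by name, genes of a list beyond these and other called genes were chosen after their values were seen. The comparison, the members and the lists were chosen with earlier results of these data known. Y-linked genes, XIST, polymorphic and commonly deleted genes, predicted loci and pseudogenes were not named. Scripts were tested on simulated data.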

Additional observations from a re-analysis of the deposited data

How the results depend on the processing

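The average of both lines gave 0 calls with all 33297 probe sets, median centring, cyclic loess, trended and robust eBayes, the 12 arrays alone and a minimum change of 0.5. It gave 2 (NF1 and TAF1L, each at an adjusted p of 0.0451) among the 14526 probe sets with a mean of at least 5, 1 (NF1, 0.0484) with array weights and 0 to 1 when an array was left out (the 1 being NF1 without the second GM10855 array of both agents). The 11 calls in GM10855 became 109 with the mean of at least 5 (9 of the 11 among them), 2 with all probe sets, 8 with median centring, 20 with cyclic loess, 156 with trended and robust eBayes, 24 with array weights, 0 with the 12 arrays alone and 5 with the minimum change. They became 0 to 145 when an array was left out. A regression on gene length, chosen after seeing the data, left 4, while the same 17785 probe sets without it gave 11. The other 7 kept changes of a like size (TAS2R31 1.13, URM1 -0.33) at adjusted p from 0.0507 to 0.128. GM10861 gave 0 in every such fit, and the difference between lines gave 0 in each, except 0 to 1 when an array was left out (the 1 without the third GM10855 array of both agents). The causes were not tested. No named gene reversed its sign while called. Median changes of lists stayed within their spread, except 0.07 for estrogen receptors and coregulators and 0.03 for natural killer cell markers with the mean of at least 5, where fewer genes are tested.

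No paired analysis was possible because the labels carry no replicate numbers. The limits are 3 arrays per group, 2 lines, 1 time and an unstated dose.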
